A study of Drosophila melanogaster with 12 samples.

Results

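The delta class glutathione S-transferases described here are 7 genes of *Drosophila melanogaster*, *GstD1*, *GstD2*, *GstD3*, *GstD5*, *GstD6*, *GstD9* and *GstD10*, chosen by gene symbol from tables of 14210 genes. All 7 were found. They were picked with their levels in the 4 groups known, so those levels and the differences with *barc* depletion are a description and carry no p-value. Levels are given as FPKM from the authors' deposited tables, that is, as fragments scaled by transcript length and by library size.

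Glutathione S-transferases join the tripeptide glutathione to reactive, electrophilic compounds, which makes these more soluble and less harmful. The delta class is expanded in insects, where it takes part in the clearance of insecticides, plant toxins and products of lipid oxidation. In flies its genes are well known as targets of the transcription factor CncC, the counterpart of mammalian Nrf2, which the inhibitor Keap1 holds in check until oxidative stress. A *GstD1* reporter is in common use as a sign of that response, and JNK and FOXO signalling are also known to act on it.

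The study depleted *barc* (barricade), the fly relative of Tat-SF1, a human factor of splicing and transcript elongation. One system was the type I neuroblast, which divides as a stem cell in the larval brain and was sorted by its GFP from larvae of the late 3rd instar kept at 29 °C. All neuroblast libraries came from larvae with dicer2, asense-Gal4 and UAS-CD8::GFP. In 2 libraries the other parent carried *barc* RNAi (VDRC TID 107013), and in 2 control libraries it carried VIE-260B, an empty landing site (VDRC TID 60100). The label calls the controls wild type, although they carry the driver, dicer2 and GFP as well. Expression of the RNAi depends on the asense-Gal4 driver. The second system was the S2 line, cultured cells of embryonic origin with features of blood cells, kept in Schneider's medium with 10% serum. S2 cells received double-stranded RNA for 7 days, against *barc* (dsbarc, 4 libraries) or against mCherry, a sequence that flies lack (dsmCherry, 4 libraries). The library kits differed between the systems, so levels are compared within each system. The labels do not say that replicates were separate cultures or cohorts of larvae, so the p-values speak of the spread among these libraries only, part of which may be technical.

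The implied depth, in units of 1000000 fragments, was 42.0 to 48.7 in *barc* RNAi neuroblasts and 27.1 to 30.4 in neuroblast controls. In S2 cells it was 14.6 to 18.3 with dsbarc and 18.8 to 28.6 with dsmCherry. *barc* itself stood at 15.1 and 17.9 FPKM in *barc* RNAi neuroblasts and at 86.4 and 94.0 FPKM in controls, a log2 change of -2.39 (SE 0.083, limma adjusted p = 5.9e-07). In S2 cells it ranged between 3.02 and 7.32 FPKM with dsbarc and between 20.9 and 23.9 FPKM with dsmCherry (log2 change -2.14, SE 0.22, limma adjusted p = 0.00067). All 8 neuroblast markers averaged at least 1 FPKM in both neuroblast groups, with summed levels of 1837 to 1840.4 FPKM in *barc* RNAi and 2001 to 2046 FPKM in controls. By limma 3 of the 8 were lower with *barc* RNAi at an adjusted p under 0.05 and 0 were higher, where 23.8% of all genes were lower. These were *dpn* (log2 difference -0.37), *nab* (-0.36) and *insc* (-0.27). In S2 cells 8 of 9 hemocyte markers averaged at least 1 FPKM, and *lz* did not. The descriptions of the 8 S2 samples set replicates 1 and 2 of either group under one leading number and replicates 3 and 4 under another. The labels do not explain this first number, which was handled as a possible batch.

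All 7 genes lie close together on chromosome arm 3R. In the coordinates of the deposited tables, which belong to a build older than release 6, they span 3R:8190496-8203629, or 13134 bases. That stretch holds 8 annotated genes, the 7 described here and *GstD4*, and no gene outside the class. *GstD10* (3R:8190496-8191440), *GstD9* (3R:8191902-8193286) and *GstD1* (3R:8193269-8194987) are on the minus strand with 2 exons each. *GstD9* and *GstD1* overlap by 18 bases on that strand, so reads from the overlap can belong to either gene. *GstD2* (3R:8197693-8198426), *GstD3* (3R:8198790-8199535), *GstD5* (3R:8201486-8202136) and *GstD6* (3R:8202894-8203629) are on the plus strand with 1 exon each. Coding sequences run from 597 bases in *GstD3*, the shortest, to 654 bases in *GstD9*. Since the genes are close copies of each other, reads shared between copies make the level of each uncertain to an extent that was not tested.

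**Figure D1:**
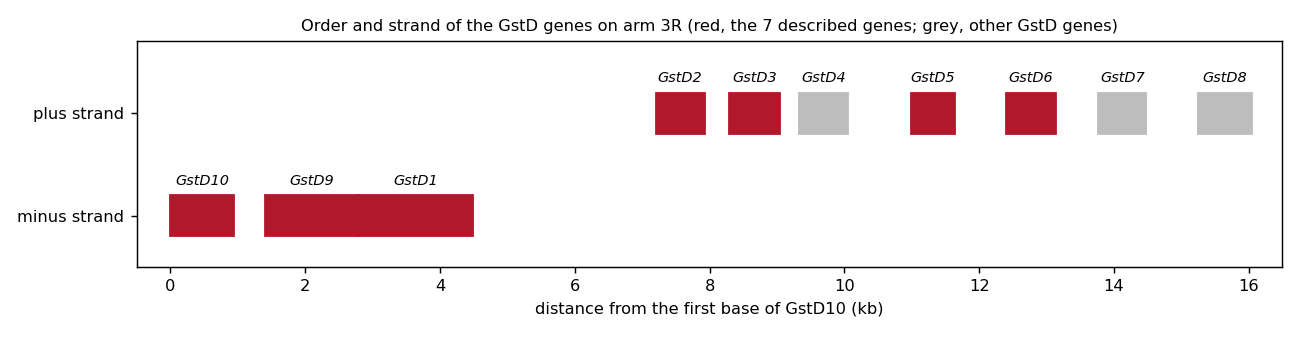
Position and strand of the GstD genes on arm 3R, as distance in kilobases from the first base of *GstD10*; red boxes are the 7 genes described and grey boxes other GstD genes. *GstD10*, *GstD9* and *GstD1* sit together on the minus strand and the single-exon genes on the plus strand.

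*GstD1*, the enzyme most used as a marker of oxidative stress in flies, had the highest level of the 7 in every group. Its mean ranked below only 793 genes in *barc* RNAi neuroblasts and 1463 genes in neuroblast controls. In S2 cells only 100 genes had a higher mean with dsbarc, and 167 with dsmCherry. In *barc* RNAi neuroblasts the order by mean FPKM was *GstD1*, *GstD9*, *GstD5*, *GstD3*, *GstD6*, *GstD10* and *GstD2*, and only *GstD5* and *GstD3* overlapped among neighbours. In neuroblast controls the order was *GstD1*, *GstD9*, *GstD3*, *GstD5*, *GstD10*, *GstD6* and *GstD2*, and *GstD5*, *GstD10* and *GstD6* overlapped as neighbours. In S2 cells *GstD3* and *GstD5* came above *GstD9* in both groups, with overlapping ranges between *GstD3* and *GstD5*, and with dsmCherry also between *GstD5* and *GstD9*. *GstD2*, *GstD6* and *GstD10* were the lowest there.

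In neuroblasts, 6 of the 7 genes had both *barc* RNAi libraries above both controls, and the differences spanned a wide range. Among the 5 genes with a mean of at least 1 FPKM, *GstD5* differed most by the ratio of mean FPKM, followed by *GstD6*, *GstD3*, *GstD1* and *GstD9*. *GstD10* overlapped between the groups. Of the 6732 genes tested in neuroblasts, 34.8% had both *barc* RNAi libraries above both controls. *GstD2* and *GstD10* are not among the genes tested, so that share does not cover them. *GstD2* had at most 5 implied fragments in any neuroblast library.

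*GstD1* had 136 and 119.7 FPKM in *barc* RNAi neuroblasts, against 69.9 and 73.1 FPKM in controls. The groups did not overlap, and the ratio of means was 1.79 (128 ± 11.6 and 71.5 ± 2.30 FPKM, SD, n = 2 each). On the log2(FPKM + 1) scale, which understates differences of low genes, the difference was 0.83 (SE 0.068). *GstD9*, its neighbour on the same strand, had 34.4 and 29.9 FPKM in *barc* RNAi neuroblasts, against 22.5 and 21.8 FPKM in controls. This was the smallest ratio of means among the genes that did not overlap, at 1.45, with a log2 difference of 0.52 (SE 0.075).

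*GstD5* had 20.7 and 9.75 FPKM in *barc* RNAi neuroblasts, against 0.338 and 0.218 FPKM in controls. The levels correspond to 718 and 290 implied fragments in *barc* RNAi neuroblasts, and to 7 and 4 in controls, so the control level rests on few reads. The ratio of means was 54.8 and the log2 difference 3.58 (SE 0.27). The pair of *barc* RNAi libraries also stood apart from each other, at 15.2 ± 7.76 FPKM (SD, n = 2), while both lay far above the controls. *GstD3*, whose product lacks the start of the typical delta class protein, had 10.1 and 7.86 FPKM in *barc* RNAi neuroblasts, against 2.04 and 1.53 FPKM in controls. It kept a clear gap between the groups, with a ratio of 5.03 and a log2 difference of 1.84 (SE 0.14).

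*GstD6* had 2.21 and 1.51 FPKM in *barc* RNAi neuroblasts, against 0.0872 and 0.249 FPKM in controls. The control values stand for 2 and 5 implied fragments, and those of *barc* RNAi neuroblasts for 82 and 47. The ratio of means was 11.1, and the log2 difference was 1.28 (SE 0.19). The remaining pair was close to absent in neuroblasts. *GstD2* had 0.132 and 0.0925 FPKM in *barc* RNAi neuroblasts, against 0 and 0.0491 FPKM in controls, from at most 5 implied fragments in any library. *GstD10* had 0.146 and 0.371 FPKM in *barc* RNAi neuroblasts, against 0.234 and 0.264 FPKM in controls, and its ranges overlapped.

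**Figure D2:**
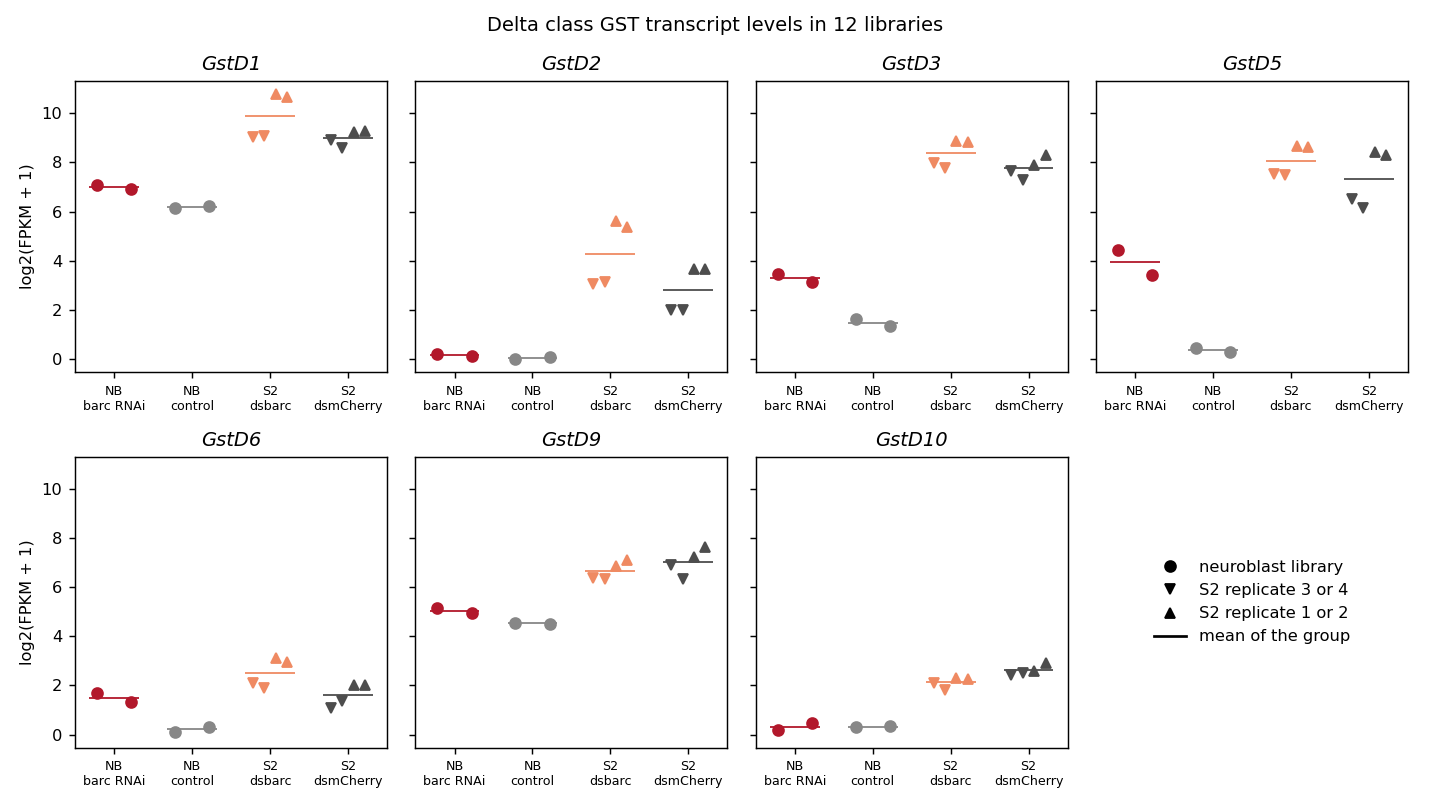
Level of each of the 7 genes in 12 libraries, as log2(FPKM + 1), with the mean of each group as a line; circles are neuroblast libraries, downward triangles S2 replicates 3 and 4, and upward triangles S2 replicates 1 and 2. In neuroblasts *GstD5* shows the widest gap, and in S2 cells replicates 3 and 4 lie below replicates 1 and 2 of their own group.

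Of the 7 genes, 5 passed the filter of a mean of 1 FPKM in neuroblasts, and *GstD5* and *GstD6* passed only through the *barc* RNAi libraries. In the limma fit all 5 were called higher at an adjusted p under 0.05. Over all genes tested 42.9% were called, 19.1% as higher and 23.8% as lower. The values that chose the genes include this contrast, so the count is a description. The authors' deposited table for neuroblasts calls the same 5 genes higher, where 28.1% of its genes are called. Its log2 ratios, restated as *barc* RNAi over control from the deposited group means, are 5.90 for *GstD5*, 3.63 for *GstD6*, 2.19 for *GstD3*, 0.81 for *GstD1* and 0.61 for *GstD9*.

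Markers of other cell types also differed between the sorted neuroblast groups. Glia markers summed to 122 to 136 FPKM in *barc* RNAi and 199 to 204 FPKM in controls, carried by *nrv2* and *Eaat1*, while *repo* and *gcm* averaged under 1 FPKM. Neuron markers summed to 56.9 to 60.1 FPKM in *barc* RNAi and 41.2 to 43.2 FPKM in controls, while *n-syb*, *brp*, *Syt1* and *Rbp9* averaged under 1 FPKM. Hemocyte markers summed to 32.8 to 35.2 FPKM in *barc* RNAi and 39.7 to 40.3 FPKM in controls. Most of that was *crq*, with means of 30.7 FPKM in *barc* RNAi and 35.1 FPKM in controls. Only 2 of the 9 hemocyte markers, *crq* and *Sr-CI*, averaged at least 1 FPKM, and *He* was at 0 in both *barc* RNAi libraries. Fat body markers stood at 3.33 to 3.55 FPKM in *barc* RNAi and 3.38 to 3.69 FPKM in controls, with *Fbp2* and *Lsp1alpha* at 0. The part of these cells in the GST differences was not tested. In bulk RNA, fewer cells of a type and less RNA per cell cannot be told apart.

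In S2 cells the 7 genes divided by direction. *GstD1*, *GstD2*, *GstD3*, *GstD5* and *GstD6* were higher in both dsbarc libraries than in both controls in each replicate pair. Taken pair by pair, 33.9% of all genes had that order within replicates 1 and 2, while 32.7% had it within replicates 3 and 4. The share of genes with that order in each pair at once was not counted, so these shares are no direct background. *GstD10* was lower in both pairs, and *GstD9* was lower in replicates 1 and 2 with overlapping ranges in replicates 3 and 4. For *GstD1*, *GstD2*, *GstD3*, *GstD5* and *GstD9* the log2 difference between the pairs was larger in size than that with dsbarc, for *GstD6* both were similar in size, and for *GstD10* it was smaller.

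*GstD1* had 1755, 1637, 528 and 532 FPKM in dsbarc replicates 1 to 4, against 607, 619, 479 and 382 FPKM in dsmCherry replicates 1 to 4. The dsbarc libraries 1 and 2 stood far above all others, while dsbarc libraries 3 and 4 lay within the range of the controls. The log2 difference over 8 libraries was 0.89 (SE 0.43). *GstD2* had 47.6, 40.1, 7.28 and 7.86 FPKM with dsbarc, against 11.5, 11.6, 2.98 and 2.97 FPKM with dsmCherry. The highest levels were again dsbarc 1 and 2, and the log2 difference was 1.47 (SE 0.70).

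*GstD3* had 462, 461, 251 and 218 FPKM with dsbarc, against 241, 314, 198 and 155 FPKM with dsmCherry. *GstD5* had 409, 392, 182 and 177 FPKM with dsbarc, against 344, 311, 90.3 and 70.3 FPKM with dsmCherry. For both genes the groups overlapped across the pairs and were apart within each pair. Their log2 differences were 0.58 (SE 0.31) for *GstD3* and 0.73 (SE 0.56) for *GstD5*. *GstD6* had 7.80, 6.74, 3.24 and 2.67 FPKM with dsbarc, against 3.01, 3.06, 1.11 and 1.55 FPKM with dsmCherry. Only dsbarc 4 fell within the control range, and the log2 difference was 0.90 (SE 0.35).

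*GstD9* had 117, 136, 82.6 and 79.6 FPKM with dsbarc, against 149, 197, 118 and 80.4 FPKM with dsmCherry. The groups overlapped, with a log2 difference of -0.35 (SE 0.28). *GstD10* had 3.95, 3.81, 3.29 and 2.48 FPKM with dsbarc, against 5.06, 6.49, 4.36 and 4.72 FPKM with dsmCherry. It was the only one of the 7 whose 4 dsbarc libraries lay wholly to one side of the 4 controls, as 18.0% of all genes tested did in that direction. Its log2 difference was -0.49 (SE 0.17).

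Of the 7 genes, 0 were called in S2 cells by limma over all 8 libraries, where 26.7% of 7603 genes were called, 11.5% as higher and 15.2% as lower. At an unadjusted p under 0.05 there were 2 calls, *GstD6* higher and *GstD10* lower, beside 1351 higher and 1836 lower of the 7603 genes. With the replicate number as a block, 6 of the 7 were called, 5 higher and *GstD10* lower, where 36.5% of all genes were called. The block left the differences as they were and lowered their SE, to 0.25 for *GstD1*, 0.18 for *GstD2*, 0.13 for *GstD3*, 0.20 for *GstD5*, 0.15 for *GstD6*, 0.13 for *GstD9* and 0.14 for *GstD10*. The count was also 6 with the first number as a block, where 46.0% were called. Within replicates 3 and 4 alone 3 were called, *GstD2*, *GstD5* and *GstD6*, with 12.1% of all genes called, and within replicates 1 and 2 alone all 7 were, with 73.1% of all genes called. As in neuroblasts, the values that chose the genes include this contrast, so all these counts are a description. The authors' deposited table for S2 cells calls *GstD1*, *GstD2* and *GstD6* higher, at log2 ratios of dsbarc over dsmCherry of 1.15, 1.87 and 1.44, where 16.7% of its genes are called.

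**Figure D3:**
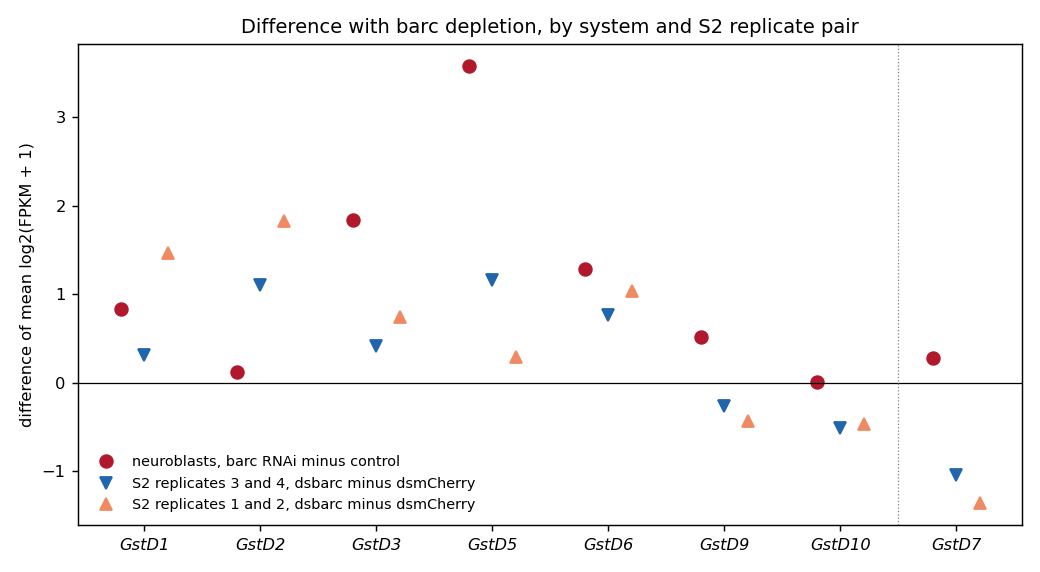
Difference of mean log2(FPKM + 1) for *barc* depletion minus control, for the 7 genes and, right of the dotted line, *GstD7*; circles are neuroblasts, downward triangles S2 replicates 3 and 4, upward triangles S2 replicates 1 and 2. *GstD5* is highest in neuroblasts at 3.58, *GstD2* in S2 replicates 1 and 2 at 1.83, and *GstD9*, *GstD10* and *GstD7* are below 0 in S2 cells.

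The group means do not hold the comparison of S2 replicates 3 and 4 with replicates 1 and 2. That comparison was tested, with treatment as a covariate. Earlier results of these data were known when the genes were chosen. Its p-values, and those of the interaction below, may therefore not be free of selection. All 7 genes were lower in replicates 3 and 4, in both treatments and without overlap within either, and 18.8% of all genes behaved in that way. By limma 6 of the 7 fell at an adjusted p under 0.05, where 26.5% of all genes were called and 13.0% were called lower (13.5% higher). The 6 remained called when any single S2 library was left out.

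*GstD2* fell most, with a log2 difference of -2.02 (SE 0.15, limma adjusted p = 4.96e-05, range over the alternatives 2.0e-05 to 4.0e-04). Its mean was 7.57 FPKM in dsbarc replicates 3 and 4, against 43.8 FPKM in dsbarc replicates 1 and 2. In dsmCherry cells its mean was 2.97 FPKM in replicates 3 and 4, against 11.6 FPKM in replicates 1 and 2. *GstD5* followed with -1.59 (SE 0.18, limma adjusted p = 4.1e-04), with means of 80.3 FPKM in dsmCherry replicates 3 and 4 and 327 FPKM in dsmCherry replicates 1 and 2. In dsbarc cells the *GstD5* means were 179.6 FPKM in replicates 3 and 4 and 401 FPKM in replicates 1 and 2. *GstD1* fell by 1.10 on the log2 scale (SE 0.22, limma adjusted p = 0.0074), and both pairs of each treatment were apart.

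The other genes changed less. *GstD6* fell by 0.93 (SE 0.12, limma adjusted p = 9.4e-04), *GstD3* by 0.81 (SE 0.13, adjusted p = 0.0029) and *GstD9* by 0.72 (SE 0.15, adjusted p = 0.0082), all on the log2 scale. *GstD10* was the exception, with a log2 difference of -0.31 (SE 0.12, limma adjusted p = 0.085), and it passed the threshold after rescaling to TPM (adjusted p = 0.032) or quantile normalisation (adjusted p = 0.015). The range for *GstD10* over the alternatives was 0.015 to 0.25. The targeted gene *barc* had a log2 difference of -0.37 between the pairs (SE 0.18, limma adjusted p = 0.16). With dsbarc it averaged 3.12 FPKM in replicates 3 and 4 and 5.80 FPKM in replicates 1 and 2, without overlap. With dsmCherry the means were 21.6 and 22.5 FPKM, with overlap. Its interaction was -0.63 (SE 0.28, limma adjusted p = 0.14, range over the alternatives 0.028 to 0.36).

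The size of the dsbarc difference also depended on the replicate pair for 3 of the 7 genes, tested as an interaction across all genes, of which 22.4% were called, 15.9% as higher and 6.47% as lower. For *GstD1* the log2 difference of dsbarc minus dsmCherry was 0.31 in replicates 3 and 4, against 1.47 in replicates 1 and 2. The interaction was -1.16 (SE 0.17, limma adjusted p = 0.0041), and it stayed called when any single S2 library was left out (highest adjusted p = 0.031). For *GstD2* the differences were 1.11 in replicates 3 and 4 and 1.83 in replicates 1 and 2, with an interaction of -0.72 (SE 0.16, limma adjusted p = 0.018). *GstD5* ran the other way, at 1.16 in replicates 3 and 4 and 0.29 in replicates 1 and 2, with an interaction of 0.87 (SE 0.18, limma adjusted p = 0.014).

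The *GstD2* and *GstD5* interactions kept their direction and similar sizes when any single S2 library was left out, from -0.84 to -0.60 for *GstD2* and from 0.69 to 1.05 for *GstD5*, but not always their call. The *GstD2* call was lost without dsbarc replicate 1, 3 or 4 or dsmCherry replicate 1 or 2, with adjusted p-values up to 0.092. The *GstD5* call was lost without any 1 of the 4 dsbarc libraries or without dsmCherry replicate 1, up to 0.069. For *GstD3*, *GstD6*, *GstD9* and *GstD10* the interaction was -0.32, -0.27, 0.17 and -0.05 in that order, with limma adjusted p-values of 0.35, 0.38, 0.70 and 0.88. The median interaction of all genes was 0.17 and became 0.00050 after quantile normalisation, where the same 3 of the 7 genes were called.

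Markers of blood cells also differed between the pairs, in both directions. The mucin-like hemocyte surface protein gene *He* had 37.4 to 41.0 FPKM in dsbarc replicates 3 and 4 and 104 to 117 FPKM in dsbarc replicates 1 and 2. In dsmCherry cells *He* had 9.03 to 12.1 FPKM in replicates 3 and 4 and 31.7 to 40.3 FPKM in replicates 1 and 2. Of 8 hemocyte markers tested between the pairs, 4 rose and 2 fell, beside 13.5% of all genes called higher and 13.0% called lower. The log2 difference was 2.24 for *Hml* (SE 0.26, limma adjusted p = 5.0e-04) and -1.58 for *He* (SE 0.13, limma adjusted p = 6.4e-05). Over both pairs together, the summed hemocyte marker level ranged from 487 to 519.7 FPKM with dsbarc and from 372 to 499 FPKM with dsmCherry. The part of these markers in the GST differences was not tested.

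**Figure D4:**
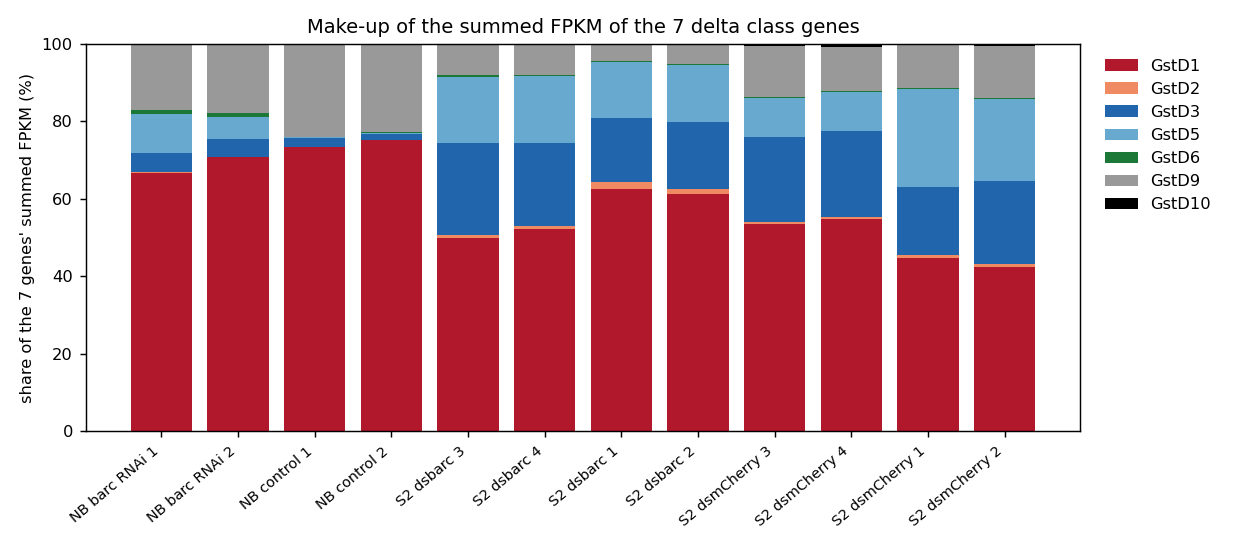
Share in percent of each gene in the summed FPKM of the 7 genes, for each of 12 libraries, with replicates 3 and 4 left of replicates 1 and 2 in S2 cells. *GstD1* holds between 42.3% and 75.2% of the sum, and *GstD5* is near 0 only in the neuroblast controls.

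The make-up of the class followed from these levels. The 7 genes summed to 204 and 169 FPKM in *barc* RNAi neuroblasts, against 95.0 and 97.2 FPKM in controls. *GstD1* held 66.8% and 70.7% of that sum in *barc* RNAi neuroblasts, against 73.5% and 75.2% in controls. *GstD5* held 10.2% and 5.77% in *barc* RNAi neuroblasts, against 0.356% and 0.224% in controls. *GstD1* thus remained the main transcript while its share was lower with *barc* RNAi.

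In S2 cells the sum was 2802, 2676, 1058 and 1019.7 FPKM in dsbarc replicates 1 to 4, against 1359, 1462, 894 and 696 FPKM in dsmCherry replicates 1 to 4. *GstD1* held 49.9% and 52.1% in dsbarc replicates 3 and 4, against 53.6% and 54.8% in dsmCherry replicates 3 and 4. In replicates 1 and 2 the order of the treatments was the opposite, with 62.6% and 61.2% with dsbarc against 44.6% and 42.3% with dsmCherry.

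The other delta class genes in the tables were *GstD4*, *GstD7*, *GstD8* and CG17639, which current nomenclature calls *GstD11*. Only *GstD4* and *GstD7* reached a mean of 1 FPKM, in S2 cells, so 0 of the 4 were tested in neuroblasts. *GstD7* was set apart from the 7 genes. It had 9.71, 8.61, 30.4 and 27.3 FPKM in dsbarc replicates 1 to 4, against 25.2, 25.0, 72.9 and 50.5 FPKM in dsmCherry replicates 1 to 4. Within each pair both dsbarc libraries were lower, and in both treatments replicates 3 and 4 were higher than replicates 1 and 2.

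Between the pairs *GstD7* thus moved opposite to the 7 genes, while with dsbarc it was lower, as were *GstD9* and *GstD10*. Its log2 difference with dsbarc was -1.21 (SE 0.49, limma adjusted p = 0.096), and with the replicate number as a block it fell at an adjusted p = 0.0019, the range over all alternatives being 1.8e-05 to 0.23. The authors' deposited table gives -1.11 with an adjusted p of 0.0083. Between the pairs it rose by 1.40 (SE 0.13, limma adjusted p = 1.7e-04, range over the alternatives 6.8e-05 to 0.0012). In neuroblasts it had 0.296 and 0.126 FPKM with *barc* RNAi, from 11 and 4 implied fragments, and was listed at 0 in both controls.

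*GstD4*, the gene that lies between *GstD3* and *GstD5*, had 4.26, 3.56, 1.34 and 1.14 FPKM in dsbarc replicates 1 to 4, against 2.41, 1.46, 0.868 and 2.06 FPKM in dsmCherry replicates 1 to 4. The groups overlapped, with a log2 difference of 0.33 (SE 0.34, limma adjusted p = 0.49, range over the alternatives 0.0077 to 0.89). Between the pairs its difference was -0.70 (SE 0.23, limma adjusted p = 0.054). In S2 cells 0 of these 2 genes were called with dsbarc by limma and 1 with the replicate block, beside 26.7% and 36.5% of all genes. At an unadjusted p under 0.05 there was 1 (*GstD7*, lower), beside 1351 higher and 1836 lower of 7603 genes.

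**Figure D5:**
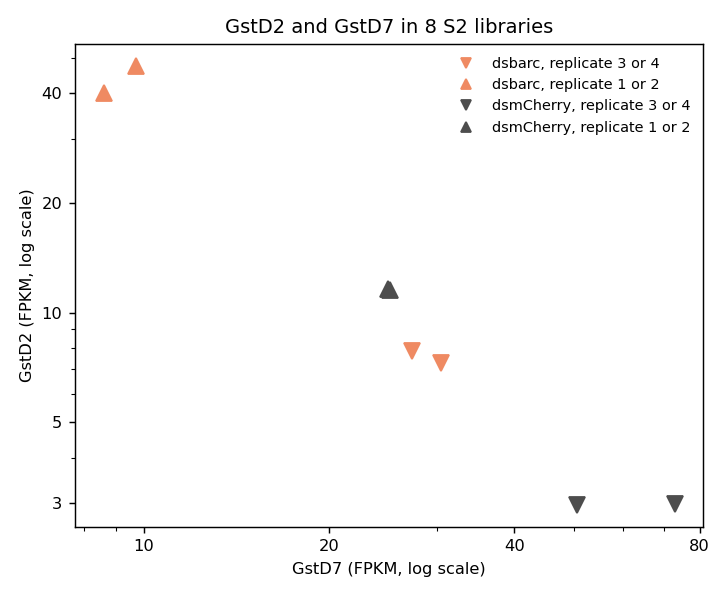
*GstD2* against *GstD7* in 8 S2 libraries, both in FPKM on log axes; orange marks are dsbarc and dark marks dsmCherry, downward triangles replicates 3 and 4, upward triangles replicates 1 and 2. *GstD2* is highest, at 40.1 and 47.6 FPKM, in the same libraries in which *GstD7* is lowest, at 8.61 and 9.71 FPKM.

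Profiles over the 12 libraries, after the mean of each system was removed, described how alike the genes were. The libraries share their treatment and their pair, so the correlations are a description. Pearson's r with the mean profile of the 7 genes was 0.91 for *GstD3*, 0.89 for *GstD6*, 0.88 for both *GstD5* and *GstD1*, 0.79 for *GstD2*, 0.77 for *GstD9* and 0.26 for *GstD10*. It was 0.70 for *GstD4* and -0.66 for *GstD7*, which are not in that mean.

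Among 6293 other genes, those most like the mean profile were CG2059 (r = 0.988), CG2017 (0.979), *APP-BP1* (0.973), CG42365 (0.970) and *Ady43A* (0.959). Those most like *GstD1* alone were *Ate1* (r = 0.990), CG6066 (0.990), *Prp31* (0.984), CG1968 (0.982) and CG33995 (0.981). CG42365 averaged 4.36 FPKM in *barc* RNAi neuroblasts and 1.05 FPKM in controls. *Prp31*, which encodes a splicing factor, averaged 145 FPKM in *barc* RNAi neuroblasts and 92.0 FPKM in controls.

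Other glutathione S-transferases did not move as 1 group. The counts of each list below stand beside 42.9% of all genes called in neuroblasts (19.1% higher, 23.8% lower) and 26.7% in S2 cells (11.5% higher, 15.2% lower), and in S2 cells they come from the fit without the block. Of the epsilon class, the other large insect class, 8 of 14 genes were tested in neuroblasts, of which 5 rose and 1 fell, with a median log2 difference of 0.84 beside -0.015 over all genes. *GstE6* averaged 94.2 ± 25.4 FPKM in *barc* RNAi neuroblasts and 3.36 ± 0.499 FPKM in controls (SD, n = 2 each), a log2 difference of 4.43 (SE 0.16, limma adjusted p = 5.9e-07). *GstE5* rose by 2.30 (SE 0.22, adjusted p = 1.2e-04) and *GstE7* by 2.27 (SE 0.16, adjusted p = 2.0e-05) on the log2 scale, while CG11784 fell by 0.91 (SE 0.094, adjusted p = 1.6e-04). With means of 7.36 FPKM in *barc* RNAi and 0.631 FPKM in controls, *GstE5* passed the filter only through the *barc* RNAi libraries. In S2 cells 10 epsilon genes were tested, of which 1 rose and 5 fell with dsbarc, with a median of -0.64 beside -0.062 over all genes. *GstE1* rose by 1.60 (SE 0.25, limma adjusted p = 0.0037), and *GstE9* fell by 1.62 (SE 0.33, adjusted p = 0.0095). With means of 3.46 FPKM with dsbarc and 0.416 FPKM with dsmCherry, *GstE1* passed the filter only through the dsbarc libraries. With the replicate block 8 of the 10 were called, 3 higher and 5 lower.

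Of 13 genes of the remaining classes, 10 were tested in neuroblasts, of which 3 rose and 5 fell (median -0.20). CG30000 rose by 1.80 (SE 0.16, limma adjusted p = 8.6e-05) and *Mgstl*, a microsomal transferase, fell by 1.10 (SE 0.16, adjusted p = 7.8e-04). The 8 calls became 5 without *barc* RNAi replicate 1, control replicate 1 or control replicate 2. In S2 cells 11 were tested, of which 1 rose and 2 fell (median -0.19), *Mgstl* again lower with dsbarc, at 81.9 ± 4.93 FPKM beside 196 ± 38.3 FPKM with dsmCherry (SD, n = 4 each; log2 difference -1.23, SE 0.15, limma adjusted p = 0.0013). These 3 calls, also 3 with the replicate block, became 1 without any 1 of the 4 dsbarc libraries or without dsmCherry replicate 1 or 2.

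Genes of the pathways named above as regulators of the class were described in the same way. Of 23 CncC pathway and antioxidant genes, 19 were tested in neuroblasts, of which 7 rose and 4 fell (median -0.029). *Gclc*, the catalytic subunit of the enzyme that limits glutathione synthesis, had 3.28 and 2.97 FPKM in *barc* RNAi neuroblasts, against 1.32 and 1.26 FPKM in controls (log2 difference 0.85, SE 0.13, limma adjusted p = 0.0011). *Prx6005*, a peroxiredoxin, fell by 0.74 (SE 0.057, limma adjusted p = 3.5e-05). The 11 calls became 5 without control replicate 1 and 6 without control replicate 2. In S2 cells 22 were tested, of which 1 rose and 7 fell with dsbarc (median -0.20). These 8 calls were 9 with the replicate block, and 5 without dsbarc replicate 1 or 2 or dsmCherry replicate 1, 2 or 3.

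The gene that rose in S2 cells was *Gclc*, at 218, 214, 40.6 and 44.3 FPKM in dsbarc replicates 1 to 4, against 38.3, 35.7, 12.7 and 14.2 FPKM in dsmCherry replicates 1 to 4. Its highest levels fell in the same dsbarc replicates 1 and 2 as those of *GstD1*, *GstD2*, *GstD3*, *GstD5* and *GstD6*. *GstD9* and *GstD10* were highest in dsmCherry replicate 2. A link between *Gclc* and the GST genes was not tested. The log2 difference of *Gclc* with dsbarc was 2.05 (SE 0.65, limma adjusted p = 0.046). Its call was lost without dsbarc replicate 1 or 2 or dsmCherry replicate 1, 2 or 3. Between the pairs *Gclc* fell by 1.86 (SE 0.18, limma adjusted p = 1.7e-04), with an interaction of -0.93 (SE 0.14, limma adjusted p = 0.0042). *Sesn* fell with dsbarc by 1.32 (SE 0.30, limma adjusted p = 0.014).

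Of 18 JNK pathway genes and targets, 14 were tested in neuroblasts, of which 5 rose and 2 fell (median 0.12). *Gadd45* rose by 3.21 (SE 0.13, limma adjusted p = 9.5e-07), and *Traf4*, an adaptor upstream of JNK, by 1.91 (SE 0.11, adjusted p = 5.7e-06). With means of 16.8 FPKM in *barc* RNAi and 0.92 FPKM in controls, *Gadd45* passed the filter only through the *barc* RNAi libraries. The 7 calls became 3, all higher, without control replicate 1. In S2 cells 17 were tested, of which 3 rose and 2 fell (median 0.18), led by *rpr*, an activator of apoptosis, at 2.20 (SE 0.28, limma adjusted p = 0.0016). The secreted cytokine *upd3* rose by 1.92 (SE 0.21, adjusted p = 8.9e-04), and the receptor *wgn* fell by 0.95 (SE 0.13, adjusted p = 0.0018). With the replicate block 7 of the 17 were called, 5 higher and 2 lower.

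Of 8 FOXO pathway genes, 7 were tested in neuroblasts, of which 3 rose and 1 fell (median 0.10). *ImpL2*, a secreted inhibitor of insulin signalling, rose by 1.18 (SE 0.15, limma adjusted p = 5.0e-04), and *foxo* itself fell by 0.71 (SE 0.12, adjusted p = 0.0018). The 4 calls became 2 without control replicate 1. In S2 cells 0 of 8 were called by limma with dsbarc (median 0.36), 2 with the replicate block, and 3, all higher, without dsmCherry replicate 4. At an unadjusted p under 0.05, 2 were higher, beside 1351 of all 7603 genes.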

How the data were processed

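RNA was sequenced in 12 libraries, and the authors deposited for each a table of FPKM values laid out as Cufflinks writes its gene tables. The authors also deposited 2 tables of comparisons that hold, per gene, group mean signal, the ratio of the means, its log2, a p-value and an adjusted p-value. The tools named, per the submitters' processing notes and with no role for each, are Cufflinks 1.3.0, TopHat 1.4.1, BWA 0.6.1, DESeq and HTSeq. Per the labels' protocols the libraries were strand-specific. For the genome build and the strand setting of counting, the sources used here give nothing. The deposited neuroblast log2 is control over *barc* RNAi and was recomputed from the group means as *barc* RNAi over control.

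No counts per library were used. Fragments were implied from each value's confidence interval, as a measure of depth: in 56 of 61 delta class values under 200 fragments they lay within 0.02 of a whole number. Each system had its own fit by limma 3.58.1 (limma-trend, R 4.3.3) on the log2(FPKM + 1) values of those genes whose mean reached 1 FPKM. A gene flagged by Cufflinks as failed or as short of data in any fitted library was dropped, a step decided after seeing the data. All tests were two-sided, and a Benjamini-Hochberg adjusted p under 0.05 over all genes tested was a call. The S2 fits between replicate pairs had treatment as a covariate, or treatment, pair and their interaction. The scripts were tested on simulated data in which libraries varied independently of each other. Those data lacked the spread that S2 replicate pairs share, so they do not test the S2 fits under it. Tables and figures were made with Python 3.11.15, pandas 2.3.3, numpy 2.4.6 and matplotlib 3.10.9.

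Same-numbered S2 libraries deviated together from their group means (r = 0.58, 0.59, 0.59 and 0.45), as did libraries of different number that share the first number (0.52 and 0.62 for replicates 1 and 2, 0.33 and 0.50 for replicates 3 and 4). The S2 numbers were therefore taken as paired, although these values do not clearly set same-numbered libraries apart from others of the same first number. The fit without a block was kept as the main one, so the S2 standard errors and list counts include the spread between pairs, and blocked values are given beside them. Neuroblast numbers were not (r = 0.067). Named genes were the 7 genes, the other delta class genes, *barc*, the 5 most similar profiles to the mean and to *GstD1*, and in each list the called genes of largest difference, of which some are given. *He* and hemocyte markers were added after their values were seen. Of 147 listed symbols 128 matched the tables, and 13575 of the gene identifiers are in the release 6 annotation, which gave strand, exons and coding lengths only. The genes and lists were chosen with earlier results of these data known. Alternatives were another pseudocount, no filter, other scalings, blocks, single pairs, left-out libraries and 1 fit over all 4 groups.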

Additional observations from a re-analysis of the deposited data

Results flagged for a closer look

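The difference with dsbarc in S2 cells differed between replicates 3 and 4 and replicates 1 and 2 for 3 genes by the test of the interaction. It was -1.16 on the log2 scale for *GstD1*, -0.72 for *GstD2* and 0.87 for *GstD5*. *GstD9* was higher in both *barc* RNAi neuroblast libraries (log2 difference 0.52) and on average lower with dsbarc in S2 cells (-0.35), and this difference between the systems was not tested. *GstD7* had a log2 difference of 0.27 in neuroblasts, from few fragments, and of -1.21 in S2 cells, which was not tested either. CG17639 stood apart from the other libraries of its group at 0.0608 FPKM in dsbarc replicate 4 and at 0.29 FPKM in dsmCherry replicate 3, which stand for 1.0 and 3.06 implied fragments, with every other S2 library under 1. These were 2 flags in 22 groups checked. Chance alone flags about 1 in 20 where values are normally distributed. That rate does not hold for values at or near 0, so the flags cannot be weighed against it.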

How the results depend on the processing

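With 1 fit over all 4 groups the genes called in neuroblasts numbered 208 in place of 2888, and 2 of the 7 GST genes in place of 5. In S2 cells the 2030 calls over all genes became 3496 with the first number as a block, 5460 in replicates 1 and 2 alone and 927 in replicates 3 and 4 alone. The 0 of 7 GST genes called there became 6 with the replicate block, 6 with the first number as a block, 7 and 3 within the pairs, and 2 in 1 fit over all 4 groups. The replicate block gave 2778 calls over all genes in S2 cells and left the 5 GST calls in neuroblasts. Leaving out 1 library gave 1847 to 2959 calls over all genes in neuroblasts, 1104 to 2513 in S2 cells, 1131 to 2944 of 2018 between the pairs and 648 to 4118 of 1702 in the interaction, the highest without dsmCherry replicate 3. GST genes called then numbered 4 to 5 in neuroblasts (*GstD6* dropped below the filter without either *barc* RNAi library), 0 to 1 in S2 cells (*GstD6* without dsbarc replicate 4), 6 between the pairs and 1 to 3 in the interaction. Signs turned for *GstD4* with dsbarc in replicates 3 and 4 alone (-0.0936), and in the interaction for *GstD9* without dsmCherry replicate 2 (-0.03) or 4 (-0.10) and *GstD10* without dsbarc replicate 4 (0.0954) or dsmCherry replicate 1 (0.0981). With 1 library left out these interactions ranged from -0.10 to 0.45 for *GstD9* and from -0.21 to 0.098 for *GstD10*. With a pseudocount of 0.1 the neuroblast differences were 2.27 for *GstD3*, 5.26 for *GstD5* and 2.92 for *GstD6*. The share of calls that were higher moved with scaling to TPM, to 66.5% of those in neuroblasts in place of 44.4%, 53.3% in place of 43.2% in S2 cells and 33.9% in place of 51.0% between the pairs, and to 52.9% in place of 71.1% in the interaction with quantile normalisation. Scaling moved the median of all genes by more than 0.1 in S2 cells (-0.062 as deposited, 0.056 as TPM), between the pairs (0.01, -0.098) and in the interaction (0.17, 0.00050). The cause of these shifts was not tested. Depth limits *GstD2*, *GstD6* and *GstD10* in neuroblasts.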

Other observations

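Between S2 replicates 3 and 4 and replicates 1 and 2, other detoxification genes changed in both directions. Of 10 epsilon class genes 2 rose and 4 fell, with *GstE3* lower by a log2 difference of -1.20 (SE 0.12, limma adjusted p = 2.1e-04) and *GstE9* higher by 0.84 (SE 0.16, limma adjusted p = 0.0066). Of 22 CncC pathway and antioxidant genes 1 rose and 3 fell, among them *Cat*, the catalase gene, at -0.63 (SE 0.15, limma adjusted p = 0.015). Of 11 genes of the other GST classes 2 rose and 2 fell, with CG1702 higher by 1.19 (SE 0.18, limma adjusted p = 0.0019). Of all genes 26.5% were called.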
